A study of Homo sapiens with 6 samples.

Results

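Mitochondrial ribosomal protein genes were followed across 6 arrays of HuH7 cells, a human hepatoma line. They were taken as every probe set whose gene symbol begins with MRPL or MRPS and a digit, and each gene is represented by its brightest probe set on average across the 6 arrays. This gave 73 protein-coding genes of 14812 named genes. Of the 77 such genes in the current RefSeq table, MRPL12, MRPS6, MRPS18C and MRPS24 were not analysed here. A pair of pseudogenes and a pair of antisense RNAs with such symbols were kept apart. There were 3 arrays of cells given a control gapmer and 3 of cells given a gapmer targeting EGOT, at 50 pmol each. A gapmer is a short oligonucleotide that directs RNase H to a complementary RNA, and EGOT is a long noncoding RNA induced by double-stranded RNA. Cells of both groups also carried a transfected plasmid for PKR, the kinase that double-stranded RNA activates, and the double-stranded RNA mimic poly I:C. RNA was taken after 36 hours. The design has 1 gapmer sequence against EGOT and no cells without PKR and poly I:C, and the labels do not say whether replicates came from separate cultures. The p-values therefore reflect only how much these arrays vary, which may be technical.

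The mitochondrial ribosome makes the few membrane subunits of the respiratory chain that mitochondrial DNA encodes. Its ribosomal RNAs come from mitochondrial DNA, whereas all its proteins are encoded in the nucleus, translated in the cytosol and imported. Compared with bacterial ribosomes it has shorter RNA and more protein: some of its proteins descend from bacterial ones and others were added in mitochondria. Its genes are nuclear housekeeping genes, and GABP, NRF1 and YY1 are factors known for controlling nuclear genes of mitochondria.

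Each value is a log2 expression level made by RMA, so a log2 difference of 1 would be a doubling. The check of the targeted RNA comes first. EGOT read 6.29, 6.79 and 6.71 with the control gapmer and 4.91, 4.90 and 4.69 with the gapmer against it, a log2 difference of -1.76 (limma adjusted p = 0.0076). EIF2AK2, the gene of PKR, which cells also carried on the plasmid, read 11.28, 11.25 and 11.24 against 10.60, 10.76 and 10.70 and fell by 0.57 (limma adjusted p = 0.0119). Array medians lay between 5.08 and 5.23, the highest in EGOT gapmer replicate 2. Correlations over all probe sets were 0.987 to 0.992 within groups and 0.985 to 0.988 between them. Of 12 liver markers 10 were measured, with control gapmer means from 8.77 for APOA1 to 13.68 for ALB. APOA1 rose by 0.36 and the other 9 did not pass, APOB among them at -0.18. Fewer cells of a type and less RNA per cell cannot be told apart in such bulk samples.

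Mitochondrial ribosomal protein genes were higher with the EGOT gapmer, by small amounts. Of the 73 genes 18 rose and 1 fell at a limma adjusted p under 0.05, and 54 did not pass. The share that rose was 24.66%, and among all 14812 genes it was 5.2%. The share that fell was 1.37%, against 3.21% of all genes. Among protein-coding genes 5.84% rose and 3.74% fell. The median log2 difference of the 73 genes was 0.21, which is 1.15-fold, and that of all genes was 0.04. A difference above 0 was found in 67 of the 73, or 91.78%, against 57.8% of all genes. All 3 EGOT gapmer values lay above all 3 control gapmer values in 44 of the 73 and below them in 1, where 20.2% and 11.5% of all genes did. The cumulative plot shows most of the set displaced to the right, with a single gene far to the left. The members were chosen with earlier results known, so these shares describe the set and are no test of it.

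**Figure D1:**
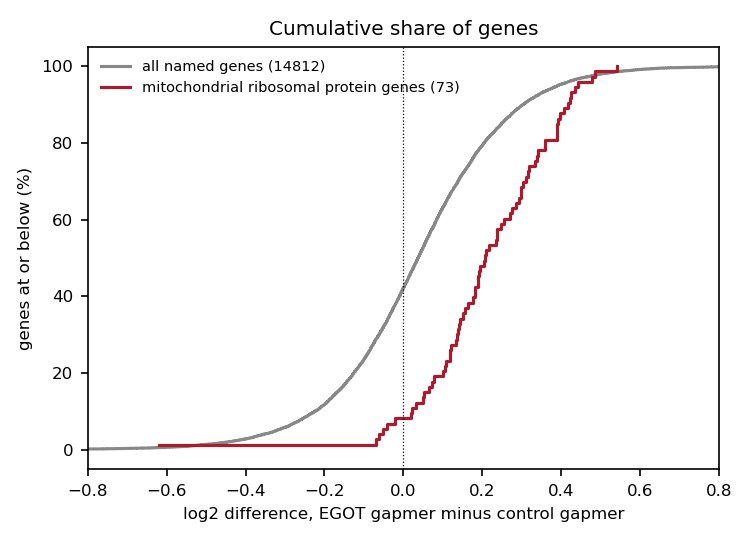
Cumulative share of genes (vertical axis, %) at or below each log2 difference, EGOT gapmer minus control gapmer (horizontal axis), for the 73 mitochondrial ribosomal protein genes (red) and all 14812 named genes (grey). The red curve lies to the right of the grey one over most of its length, with medians of 0.21 and 0.04, and its lowest gene, MRPS9, is at -0.62.

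The displacement was present in each EGOT gapmer array. The mean over the 73 genes was 7.74, 7.71 and 7.73 for control gapmer replicates 1 to 3 and 7.88, 8.02 and 7.91 in EGOT gapmer replicates 1 to 3. As group values these are 7.73 ± 0.0136 and 7.94 ± 0.077 (SD, n = 3 each). All 3 EGOT gapmer arrays were therefore above all control gapmer arrays. The mean over all named genes stood at 6.21 in every control gapmer array but 1, which had 6.22, and at 6.22, 6.31 and 6.22 in EGOT gapmer replicates 1 to 3, so EGOT gapmer replicate 2 was higher over all genes too. Relative to the control mean of each gene, 63, 70 and 64 of the 73 genes were higher in EGOT gapmer replicates 1, 2 and 3. Of the EGOT gapmer values, replicate 2 held the highest in 58 of the 73 genes and in 15 of the 18 that rose. Without it 6 genes rose, 1 fell and the median was 0.17, and leaving out other arrays lowered the calls too.

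The number of calls depended on every array. All 18 genes that rose kept a difference above 0 under each of 14 alternatives. Most of this was fixed beforehand. Their groups did not overlap, so leaving out or reweighting arrays could not reverse them. Changing the variance model, the block or the low-value filter leaves the difference itself unchanged. Over the alternatives that leave out 1 array, 63 to 69 of the 73 members were above 0, and members near 0 such as MRPS27 and MRPL23, which did not pass, changed sign across the 14. With 1 array left out, 0 members rose without control gapmer replicate 1, 2 or 3 or without EGOT gapmer replicate 3, 9 without EGOT gapmer replicate 1 and 6 without EGOT gapmer replicate 2. Of all genes, 0.108%, 0.0135% and 0.0878% rose without control gapmer replicates 1, 2 and 3, and 0.284%, 0.0473% and 0.142% fell. Without EGOT gapmer replicates 1, 2 and 3 the shares that rose were 2.63%, 1.67% and 0.466%, and those that fell were 1.28%, 1.74% and 0.587%. Rescaling the arrays changed less. After a further quantile normalization 14 members rose and 1 fell, where 4.58% of all genes rose and 4.55% fell, and 63 members stayed above 0. After cyclic loess 14 rose and 1 fell, where 4.35% and 4.57% of all genes did, and 62 stayed above 0. With a variance trend in the model 34 members rose and 1 fell, against 11.2% and 5.73% of all genes.

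**Figure D2:**
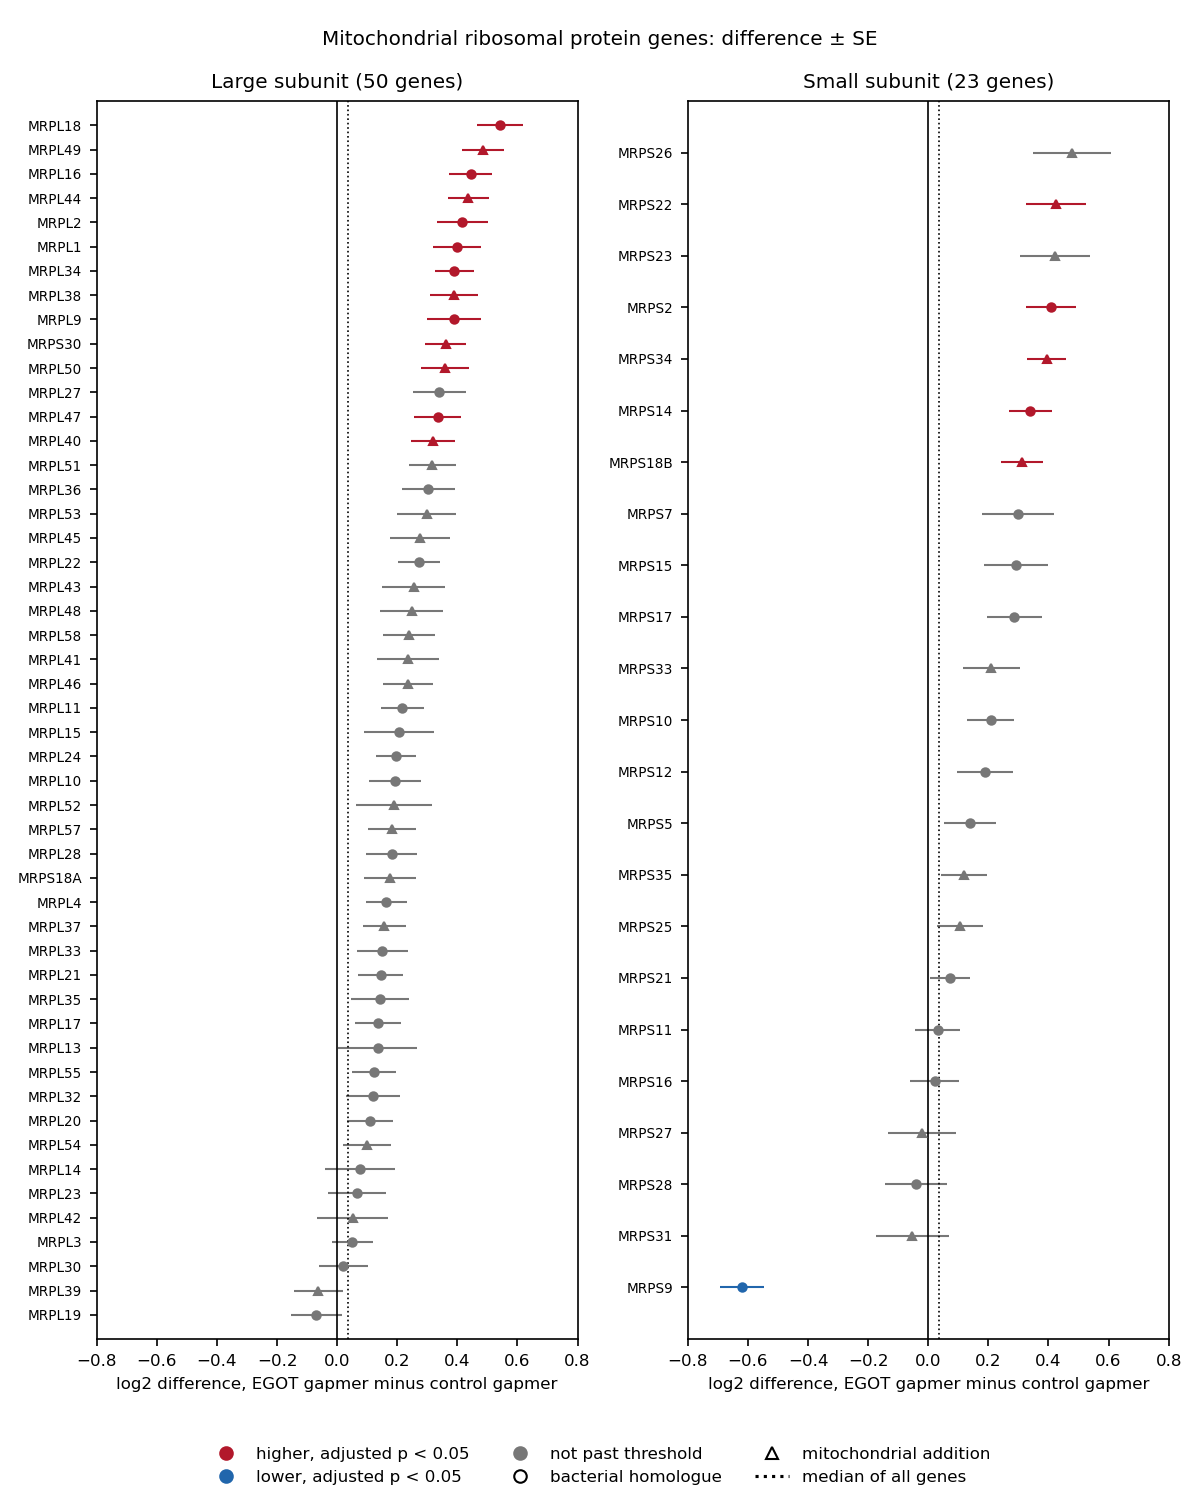
Log2 difference, EGOT gapmer minus control gapmer, with its standard error (horizontal axis) for each gene of the large subunit (left, 50 genes) and small subunit (right, 23 genes), 3 arrays per group. Red marks genes that rose, blue the gene that fell and grey those that did not pass; circles have bacterial relatives and triangles are mitochondrial additions. Of the large subunit 48 genes lie right of 0, of the small subunit 19.

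Both subunits took part. The large subunit, which forms peptide bonds, had 50 measured genes, MRPS18A and MRPS30 among them, since structures place those proteins there despite their symbols. Of these 13 rose (26%), 0 fell and 37 did not pass, with a median of 0.21. Of all genes 5.2% rose and 3.21% fell. The small subunit, which reads the messenger RNA, had 23 measured genes. Of these 5 rose (21.7%), 1 fell (4.35%) and 17 did not pass, also with a median of 0.21. Split the other way, 42 proteins have bacterial relatives and 31 are mitochondrial additions by the unified ribosomal protein names, which count MRPS18A and MRPS18B as additions although both are related to a bacterial protein. Of the former 9 rose (21.4%) and 1 fell (2.38%), with a median of 0.19. Of the latter 9 rose (29.0%) and 0 fell, with a median of 0.25. The quartiles of all 73 members were 0.12 and 0.33, and the difference between classes was not tested.

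The rise was largest in MRPL18. MRPL18 is related to a bacterial protein that binds 5S ribosomal RNA and sits in the central protuberance of the large subunit. With the control gapmer it read 7.84, 7.83 and 7.71, and with the EGOT gapmer 8.26, 8.41 and 8.35. This is a log2 difference of 0.54 ± 0.0763 (SE), or 1.46-fold (limma adjusted p = 0.0149). MRPL49, a protein added in mitochondria, read 8.07, 8.12 and 8.05 against 8.49, 8.61 and 8.60, a difference of 0.49 ± 0.0702 (SE, limma adjusted p = 0.0154). MRPL16, whose bacterial relative lies beside the transfer RNA sites, read 7.58, 7.57 and 7.64 against 7.97, 8.13 and 8.03, a difference of 0.44 ± 0.0728 (SE, limma adjusted p = 0.0203). In each of these genes the lowest EGOT gapmer value exceeded the highest control gapmer value, as it did in 20.2% of all genes. Genes past the threshold were chosen for a difference that is large for its spread, so this separation adds no support.

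MRPL44, a protein with a fold like that of RNase III, had the tightest control values of the large subunit genes that rose. They were 7.86, 7.86 and 7.84, and its EGOT gapmer values were 8.22, 8.36 and 8.29, a difference of 0.44 ± 0.0691 (SE, limma adjusted p = 0.0188). Its second probe set was dim, at 1.94 to 2.25 over the 6 arrays, and had a difference of 0.11. As the mean of both probe sets MRPL44 was at 0.27 and did not pass. MRPL2, one of the most conserved proteins near the catalytic centre, read 8.10, 8.04 and 7.98 against 8.36, 8.60 and 8.41, a difference of 0.42 (limma adjusted p = 0.0334). MRPL1, of the mobile stalk over the exit site for transfer RNA, read 6.71, 6.65 and 6.85 against 7.08, 7.21 and 7.13, a difference of 0.40 (limma adjusted p = 0.0318).

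The other 7 large subunit genes that rose lay between 0.32 and 0.39. MRPL34 and MRPL9 have bacterial relatives, and MRPL47 is related to a protein at the mouth of the exit tunnel. MRPL34 read 8.30, 8.29 and 8.26 with the control gapmer and 8.63, 8.66 and 8.72 with the EGOT gapmer. MRPL9 read 8.21, 8.16 and 8.17 against 8.40, 8.66 and 8.64, with replicate 1 the lowest of its EGOT gapmer arrays. MRPL47 read 8.67, 8.50 and 8.66 against 8.92, 9.003 and 8.91. The mitochondrial additions among them were MRPL38 and MRPL40 of the central protuberance, MRPL50 and MRPS30. MRPS30, which despite its symbol belongs to the large subunit, read 8.46, 8.48 and 8.47 against 8.82, 8.90 and 8.78. MRPL38 read 7.43, 7.60 and 7.62 against 7.93, 7.998 and 7.88, and MRPL50 8.05, 8.06 and 8.13 against 8.33, 8.54 and 8.44. MRPL40 read 8.02, 7.99 and 7.87 against 8.30, 8.30 and 8.24. The groups did not overlap in any of the 7, which their passing the threshold made likely. Limma adjusted p-values ran from 0.0212 for MRPL34 to 0.0449 for MRPL47.

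Of the small subunit, MRPS22, MRPS2, MRPS34, MRPS14 and MRPS18B rose. MRPS22 is a mitochondrial addition in which inherited variants cause respiratory chain deficiency, and it read 7.63, 7.43 and 7.44 against 7.80, 8.08 and 7.89. Its difference was 0.43 with a standard error of 0.101 (limma adjusted p = 0.0471), the least precise of the 18. MRPS2 read 6.79, 6.68 and 6.64 against 6.998, 7.20 and 7.14, a difference of 0.41. A second, dimmer probe set of MRPS2 had a difference of 0.20. Over the 14 alternatives MRPS2 lay between 0.30 and 0.47 and passed in 6. By the mean of probe sets 16 of the 18 genes that rose still passed. MRPS34, a mitochondrial addition needed for stability of the small subunit, read 8.48, 8.55 and 8.56 against 8.91, 8.95 and 8.91, a difference of 0.39 (limma adjusted p = 0.0212) that had the smallest standard error of the 5. MRPS14 read 6.88, 7.003 and 6.89 against 7.26, 7.29 and 7.23, a difference of 0.34. MRPS18B read 7.33, 7.35 and 7.28 against 7.65, 7.57 and 7.68, a difference of 0.31, and its 7 probe sets held identical values, so they count as 1 measurement. None of these 5 genes, also chosen for passing the threshold, had overlapping groups.

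**Figure D3:**
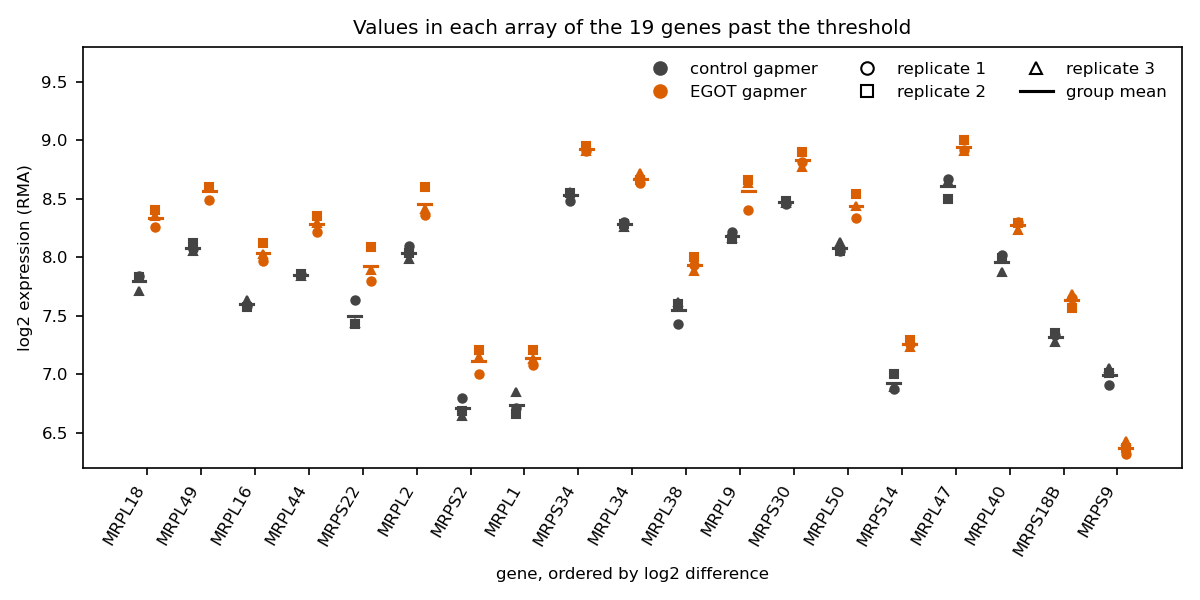
Log2 expression (vertical axis) in each array for the 18 genes that rose and MRPS9, which fell, ordered by log2 difference (horizontal axis). Grey symbols are the 3 control gapmer arrays, orange symbols the 3 EGOT gapmer arrays, symbol shape the replicate number and bars the group means. The colours do not overlap in any gene, and all were chosen for passing the threshold.

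MRPS9 went the other way, and by more than any gene that rose. MRPS9 is the small subunit protein whose bacterial relative reaches with its tail towards the transfer RNA in the peptidyl site. With the control gapmer it read 6.91, 7.01 and 7.05, and with the EGOT gapmer 6.32, 6.37 and 6.43. This is a log2 difference of -0.62 ± 0.0742 (SE), or 0.651-fold (limma adjusted p = 0.0112). The next lowest member, MRPL19, was at -0.07, so MRPS9 stood far from all other members. MRPS9 passed in 11 of 14 alternatives, with differences from -0.66 to -0.59. It did not pass without control gapmer replicate 2 (limma adjusted p = 0.0624) or 3 (limma adjusted p = 0.0612). The array gives MRPS9 a single probe set, and the part of the transcript it reads is not given in the sources used here.

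Several members missed the threshold by little. MRPS26 and MRPS23 had the third and seventh largest differences of all members, 0.48 and 0.42, but larger standard errors of 0.13 and 0.116 (limma adjusted p = 0.0672 and 0.0684). MRPS26 read 7.55, 7.49 and 7.44 against 7.87, 8.26 and 7.78, and MRPS23 read 7.93, 7.75 and 7.83 against 8.03, 8.44 and 8.30. In both, all EGOT gapmer values lay above all control gapmer values, as in 44 of the 73 members and 20.2% of all genes. EGOT gapmer replicate 2 was the highest array in both, and the highest EGOT gapmer array in 58 of the 73 members. MRPL51 (0.32), MRPL27 (0.34) and MRPL22 (0.27) lay just outside with limma adjusted p-values of 0.0537, 0.0571 and 0.0571. They are 2 bacterial relatives and, in MRPL51, a mitochondrial addition. MRPL36, MRPL53, MRPS15, MRPS17 and MRPL45, the last a protein that holds the ribosome to the inner membrane, had differences of 0.30, 0.30, 0.29, 0.29 and 0.28 that did not pass. MRPS7, at 0.30, had overlapping groups because control gapmer replicate 1 read 8.90 where the other control arrays read 8.51 and 8.49.

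At the other end, members with differences near 0 came from both subunits. MRPL39, MRPS31, MRPS28 and MRPS27 had differences of -0.06, -0.05, -0.04 and -0.02, and their groups overlapped, as did those of MRPL19. MRPS16, MRPL30, MRPS11, MRPL3 and MRPL42 lay between 0.02 and 0.05. MRPS16 carried a dimmer probe set with a difference of 0.23, against 0.02 for the one used. MRPS12, of the decoding centre, was at 0.19 (limma adjusted p = 0.262), and MRPL11 and MRPL10, of the factor-binding stalk, were at 0.22 and 0.19 (limma adjusted p = 0.115 and 0.222). MRPL58, a peptidyl-tRNA hydrolase built into the ribosome, was at 0.24 (limma adjusted p = 0.145). A value that missed the threshold does not show that a gene was the same in both groups.

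Means over the 6 arrays lay above 5.13, the median of all probe sets, in 73 of 73 members, the dimmest by little. They did so in 10349 of the 14812 named genes too. The lowest values were those of MRPL23, at 5.41 to 5.71 over the 6 arrays, MRPL52 and MRPL54, and the highest were those of MRPS21, at 10.24 to 10.37, MRPS35 and MRPS15. None of these 6 passed, with differences of 0.07, 0.19, 0.10, 0.07, 0.12 and 0.29. Probes differ in brightness for equal RNA, so these levels do not rank the transcripts. When the genes above that median were tested alone, 25 members rose and 1 fell, where 13.2% and 7.23% of those genes did.

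Members are short genes, and over all genes the difference tended to be lower at longer spans. The trend of the difference on span, fitted over all genes, ran from -0.24 to 0.09. The median of all genes was 0.04 and that of the members 0.21. The median genomic span was 8.67 kb for the 73 genes, 20.9 kb for all genes and 26.7 kb for protein-coding genes. Across genes, Spearman's rho between span and log2 difference was -0.39 over the 73 members and -0.21 over all genes. Genes within an array are not independent, and short spans include small RNAs. Of the 73 members 56 were under 20 kb, and of the 18 that rose 17 were, and the exception was MRPL1 at 90.0 kb. MRPS9, at 61.9 kb, is among 6 members over 50 kb. With the trend of the difference on span removed, 7 members rose, MRPL18, MRPL49, MRPL1, MRPL16, MRPL44, MRPS34 and MRPL34, at 0.34 to 0.49, where 2.77% of all genes did. MRPS9 still fell by 0.60, where 1.5% of all genes fell, and the median was 0.15.

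**Figure D4:**
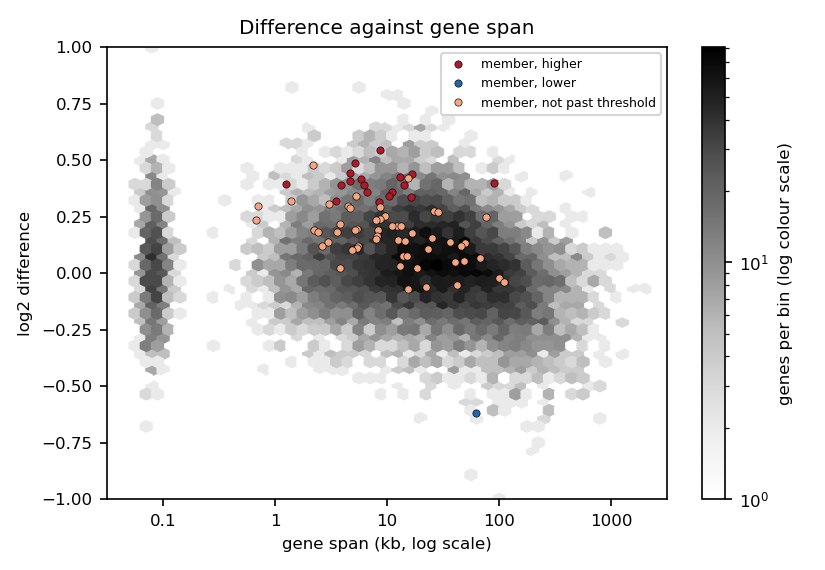
Log2 difference (vertical axis) against genomic span in kb (horizontal axis, log scale) for all genes (grey bins, darker with more genes on a log colour scale) and the 73 members (points). Most members lie left of 20 kb and above 0; MRPL1, at 90.0 kb, is the long gene among the red points, and MRPS9, at 61.9 kb, lies alone at -0.62. Genes outside -1 to 1 are not drawn.

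RefSeq start regions on GRCh38.p14, from 250 bases before to 50 after the start, were found for 65 of the 73 members. The 5 shown are the 3 largest rises past the threshold, the largest such rise with the YY1 letters and MRPS9. Each runs from 100 bases before to 50 after the first listed start, 5′ to 3′ on the strand of the gene. Capitals mark the letters of the 3 motifs searched on both strands: CCGGAAG for ETS factors such as GABP, GCGCATG for NRF1 and ATGGCGG for YY1.
MRPL18: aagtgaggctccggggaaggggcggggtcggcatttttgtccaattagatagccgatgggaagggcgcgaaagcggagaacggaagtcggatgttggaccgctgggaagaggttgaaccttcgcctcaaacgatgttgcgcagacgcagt
MRPL49: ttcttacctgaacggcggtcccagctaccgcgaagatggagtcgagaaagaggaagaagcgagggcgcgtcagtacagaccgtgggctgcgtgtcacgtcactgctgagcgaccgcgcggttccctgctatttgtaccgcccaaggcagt
MRPL16: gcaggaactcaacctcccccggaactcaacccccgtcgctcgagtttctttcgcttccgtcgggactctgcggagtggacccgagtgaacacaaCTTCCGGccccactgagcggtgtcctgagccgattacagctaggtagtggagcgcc
MRPL1: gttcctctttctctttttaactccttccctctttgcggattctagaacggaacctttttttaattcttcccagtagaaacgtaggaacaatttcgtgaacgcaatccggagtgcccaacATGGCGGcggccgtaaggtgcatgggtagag
MRPS9: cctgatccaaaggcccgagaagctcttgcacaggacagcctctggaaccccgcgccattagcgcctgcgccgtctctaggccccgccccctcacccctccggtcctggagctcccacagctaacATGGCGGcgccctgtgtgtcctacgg
These lie at chr6:159789712-159789861 (plus strand) for MRPL18, chr11:65122083-65122232 (plus) for MRPL49, chr11:59810729-59810878 (minus) for MRPL16, chr4:77862730-77862879 (plus) for MRPL1 and chr2:105037969-105038118 (plus) for MRPS9. MRPL16 has the ETS letters 6 bases before the start, on the other strand, and MRPL1 and MRPS9 have the YY1 letters 19 and 24 bases after it. The windows of MRPL18 and MRPL49 hold none of the 3.

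Over the whole 250 and 50 bases the ETS letters were in 28 of 65 members, or 43.1%, and in 10.7% of all 27305 genes of the table and 14.2% of its protein-coding genes. The YY1 letters were in 23 of 65, or 35.4%, against 5.72% and 7.63%. The NRF1 letters were in 6 of 65, or 9.23%, against 4.67% and 5.87%. At least 1 of the 3 was in 46 of the 65 members (70.8%) and in 24.0% of protein-coding genes, and 7 members held both ETS and YY1 letters. Of the 24 YY1 matches 18 lay after the start on the strand of the gene, where the same letters can spell a start codon followed by alanine. No ETS match did. Matches overlapped each other in 1 member.

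The YY1 letters were more frequent in members that rose than in those that did not pass, and the ETS letters less frequent. The YY1 letters were in 9 of 17 members that rose (52.9%) and in 13 of 47 that did not pass (27.7%). They were also in MRPS9, which fell. The ETS letters were in 6 of 17 (35.3%) and 22 of 47 (46.8%). Median differences were 0.27 with and 0.20 without the YY1 letters, and 0.22 with and 0.24 without the ETS letters. A match is a description of the sequence, and no difference between these shares was tested.

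Some members start near another gene on the opposite strand. Such a gene, with its start within 1000 bases, was found for 24 of the 65 members with start regions. The share over all genes was not computed. Distances reached 990 bases, and 12 of these partners were measured. FAU, which encodes a ubiquitin-like protein fused to a cytosolic ribosomal protein, starts 49 bases from MRPL49. FAU read 7.12, 7.09 and 7.09 with the control gapmer and 7.45, 7.61 and 7.65 with the EGOT gapmer, a rise of 0.47 beside the 0.49 of MRPL49. EME1, a subunit of a DNA repair endonuclease, starts 45 bases from MRPL27 and rose by 0.48, beside 0.34 for MRPL27, which did not pass. The other 10 did not pass, and of all genes 5.2% rose. Where the member rose, HIRA beside MRPL40 had a difference of -0.11, ZNF189 beside MRPL50 one of 0.15 and PIERCE1 beside MRPS2 one of -0.01. MRPL46 and MRPS11 are partners of each other, 320 bases apart, at 0.24 and 0.03. These pairs were looked up after the values of the members were known.

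The rest of the mitochondrial translation machinery was taken from 4 lists. Of 53 measured genes 8 rose and 2 fell, with a median of 0.15. These shares were 15.1% and 3.77%, against 5.2% and 3.21% of all genes, so the share that fell was near that of all genes. Ribosomal proteins with other symbols numbered 5, of which 3 were measured. CHCHD1, a small subunit protein, rose by 0.58, from 6.14, 6.33 and 6.58 to 6.94, 6.96 and 6.88 (limma adjusted p = 0.0304). PTCD3, a small subunit protein with pentatricopeptide repeats, fell by 0.27, from 8.86, 8.89 and 8.80 to 8.58, 8.57 and 8.57 (limma adjusted p = 0.049). DAP3, the third, was at 0.13 and did not pass.

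Among 11 measured translation factors 1 rose (9.09%) and 0 fell, where 5.2% and 3.21% of all genes did. The gene was MTRF1L, a release factor, at 0.35 (limma adjusted p = 0.0452), and MTFMT, which formylates the initiator transfer RNA, was at 0.34 (limma adjusted p = 0.0514). Among 24 assembly factors 3 rose (12.5%) and 1 fell (4.17%). MRM2, a methyltransferase of the large ribosomal RNA, rose by 0.41, TRUB2, a pseudouridine synthase, by 0.40 and NOA1, a GTPase, by 0.32. MTG2, also a GTPase of ribosome assembly, fell by 0.54, from 7.57, 7.62 and 7.65 to 6.85, 7.36 and 6.99, where EGOT gapmer replicate 2 was nearest to the control. Of 15 genes of transcription and RNA handling 3 rose (20%) and 0 fell. FASTKD3, an RNA-binding protein, rose by 0.56, TRMT10C, a subunit of mitochondrial RNase P, by 0.40 and HSD17B10, another subunit of it, by 0.34. Of the 8 rises CHCHD1, TRUB2 and FASTKD3 still passed with the span trend removed. Genes of mitochondrial DNA were not analysed here.

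Markers of other cells were read in the same arrays. Of 10 leukocyte markers 5 were measured and 2 rose, CD68 by 1.06 and LYZ by 0.57, while CD2, CD14 and CD163 did not pass, at 0.34, -0.06 and -0.32. The mean of the 5 was 6.28 to 6.48 in the control gapmer arrays and 6.64 to 6.84 in the EGOT gapmer arrays. With the control gapmer CD14, CD2 and CD163 were at 5.65, 5.15 and 4.26. Of 3 endothelial and 2 fibroblast markers 0 passed, by limma at the adjusted threshold or at an unadjusted p under 0.05. The endothelial marker KDR was at 3.76 with the control gapmer and the fibroblast marker DCN at 2.37. All 6 samples are labelled as the HuH7 line, so the design holds no other cell type. Any part of these marker genes in the result was not tested.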

How the data were processed

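Total RNA of 6 HuH7 samples was measured on Affymetrix Human Gene arrays. The deposited values are log2 expression values that the authors made with RMA, per the submitters' processing notes. The sources used here do not give RMA's version or any filters. RMA corrects background, normalizes and summarises probes, and it compresses differences near background. Of 44629 probe sets 15835 had 1 gene symbol in GEO's platform annotation, 0 several and 28794 none. All named ones matched the RefSeq table of GRCh38.p14, and 651 genes had several probe sets. Groups were compared by limma 3.58.1 in R 4.3.3 (lmFit, eBayes, two-sided, Benjamini-Hochberg over 14812 genes, threshold 0.05, without a block). The number of arrays limits the precision. The fit was tested on simulated data. The members, lists, classes and motifs were chosen with earlier results of these data known. Named genes are members past the threshold, the 6 largest differences each way, the 3 brightest and dimmest, members whose probe sets disagree, and of each list the genes past the threshold and those with the smallest p; others were named after their values were seen. Subunits and classes follow the unified ribosomal protein names. Alternatives changed normalization, variance model, probe set choice, low-value filter, gene span, array weights, block and arrays used. Same-numbered arrays did not deviate together (correlations -0.05 to 0.03).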

Additional observations from a re-analysis of the deposited data

How the results depend on the processing

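Of 19 members past the threshold tested under 14 alternatives each, 130 of 266 values stayed past it, 136 kept their direction and did not pass, and 0 reversed. The groups of these 19 did not overlap, so most alternatives could not reverse a direction, and the 0 is no sign of stability. Members that rose numbered 34 with a variance trend, 7 with the gene span trend removed, and 0 to 9 with 1 array left out; the 1 that fell was then 0 or 1. With the replicate block 0 members and 0 genes in all passed; 3 arrays a group leave that fit few residual degrees of freedom, the replicate numbers are not said to pair samples, and no paired value is read from it. All genes higher and lower numbered 1664 and 849 with a variance trend, 1362 and 748 among genes above the median, 411 and 222 with the span trend removed, 2 to 389 and 7 to 258 with 1 array left out, and 679 and 674 or 644 and 677 after quantile normalization or cyclic loess, when 14 members rose and 1 fell. In the 4 lists 5 rose with cyclic loess, 13 with a variance trend, 3 with the span trend removed and 0 to 3 with 1 array left out; 5 fell with a variance trend, 1 by the mean of probe sets, 0 with the span trend removed and 0 or 1 with 1 array left out. Rises in the large subunit numbered 23 with a variance trend, 6 with the span trend removed and 0 to 6 with 1 array left out. In the small subunit they numbered 3 after quantile normalization or cyclic loess, 11 with a variance trend, 8 among genes above the median, 1 with the span trend removed and 0 to 3 with 1 array left out. Among bacterial relatives they numbered 18, 4 and 0 to 5 with a variance trend, with the span trend removed and with 1 array left out. Among mitochondrial additions they numbered 16, 3 and 0 to 4. The share of all genes that rose was 11.2%, 2.77% and 0.0135% to 2.63% under these 3 settings. It was 4.58% after quantile normalization and 4.35% after cyclic loess, and 13.2% of the genes above the median rose. With 1 array left out the median of the small subunit ranged from 0.15 to 0.25 and that of the additions from 0.17 to 0.30. Fewer arrays tested is the construction of these fits; other causes were not tested. In the shorter window, from 100 bases before to 50 after the start, the ETS, NRF1 and YY1 letters were in 38.5%, 6.15% and 32.3% of members and in 7.93%, 3.1% and 4.07% of all genes. The signal of all 73 members lay above the median of all probe sets, as did that of 10349 of the 14812 named genes.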

Other observations

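Regulators known for nuclear genes of mitochondria did not pass, by limma over all genes. Of 10 listed 4 were measured, with differences of 0.03 for NRF1, -0.01 for YY1, 0.13 for ESRRA and -0.21 for MYC, and 0 had an unadjusted p under 0.05.

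Antisense RNAs and pseudogenes with members' names gave no calls either. MRPL20-AS1 read 6.40, 6.51 and 6.45 with the control gapmer and 6.68, 6.80 and 6.75 with the EGOT gapmer, which is 0.29 higher and missed the threshold (limma adjusted p = 0.0545), beside 0.11 for MRPL20. MRPL23-AS1 was at -0.14 beside 0.07 for MRPL23. The pseudogene MRPL45P2 was at 0.01 and its parent gene MRPL45 at 0.28, and MRPL42P5, at 0.13, was beside 0.05 for MRPL42. Whether probes of parent and pseudogene share sequence was not tested.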
